A study of Mus musculus with 16 samples.

Results

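Collagen folding and modification genes were followed in haematopoietic stem and progenitor cells of mice that carried an Asxl1 transgene, an Srsf2 mutation, both or neither. The set holds 10 genes picked by name for their function out of 55291 in the deposited table. It was drawn up after 2 of them, Serpinh1 and Fkbp10, had been seen to be higher with the transgene. The values of these 2 genes with and without the transgene are therefore given as a description, without a test. The other 8 are P4ha1, P4ha2, P4hb, Plod1, Plod2, Plod3, P3h1 and Crtap, and all 10 were among the 22749 genes tested.

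RNA was sequenced from bone-marrow cells of 16 individual C57BL/6 mice, 4 of each genotype. The cells were purified with beads as LSK cells, which lack lineage markers and carry c-Kit and Sca-1, the surface phenotype of blood stem cells and early progenitors. The groups are named WT (neither mutation), Asxl1Tg (Asxl1Y588XTg, a transgene for a truncated form of the chromatin regulator Asxl1), Srsf2P95H (Srsf2P95H/+, a heterozygous amino acid change in the splicing factor Srsf2) and DM (double mutants, which carry both). The labels give no promoter for the transgene, no recombinase and no age, sex, batch or date. The series is concerned with leukaemia that the transgene gives rise to, and with the part of Srsf2P95H/+ in it.

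Collagen chains are modified in the endoplasmic reticulum before they fold into a triple helix. Prolyl 4-hydroxylases, built of P4HA catalytic subunits and protein disulfide isomerase (P4hb), hydroxylate prolines that stabilise the helix, lysyl hydroxylases (Plod genes) prepare lysines for crosslinks and sugars, and a complex of P3h1, Crtap and cyclophilin B (Ppib) 3-hydroxylates selected prolines. Hsp47, the product of Serpinh1, binds the folded helix and travels with it towards the Golgi, and FKBP65, the product of Fkbp10, is a prolyl isomerase that acts with it and with lysyl hydroxylase 2. In the bone marrow, collagen is made mostly by stromal and bone-forming cells, and loss of many of these genes in humans causes brittle bones.

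The libraries held 82.99 to 127.6 megacounts, and expression is given as CPM (counts per megacount after TMM scaling). The stem and progenitor markers Kit (699 to 1210 CPM) and Cd34 (738 to 1000 CPM) were high in every library, whereas Ly6a, which encodes Sca-1, ran from 23.2 to 54.3 CPM. Of the 18 stromal and bone markers, Lum, Dcn, Col3a1, Bglap, Sp7 and Acan were at or below 0.505 CPM in all libraries and at 0 in 1 or more, whereas Runx2 (116 to 187 CPM), Pdgfrb (30.9 to 114 CPM), Col1a1 (up to 112 CPM), Col1a2 (up to 61.9 CPM) and Cxcl12 (up to 7.65 CPM) were higher. WT 4 had the highest summed eosinophil (1580 CPM) and B cell (160.5 CPM) markers. Where a call was rerun without both WT 4 and Srsf2P95H 2 and was lost, this is stated with it. Calls of cell markers were not rerun in this way. Asxl1 counts do not separate the transgene from the resident gene and overlapped between transgenic libraries (218 to 236 CPM) and the others (206 to 234 CPM). Xist, a transcript of female cells, was 1566 to 2312 CPM in WT 1, Asxl1Tg 3, Srsf2P95H 2, Srsf2P95H 3 and DM 1. It was at most 2.106 CPM in the other libraries, so each genotype held mice of both sexes, in unequal numbers. In RNA of a cell population, fewer cells of a type and less RNA per cell cannot be told apart.

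Per kilobase of exon, the members spanned a wide range of levels. P4hb, which also serves as a general disulfide isomerase, was the highest at 258.6 CPM per kb as the mean of 16 libraries, above 99.5% of the 22095 tested genes with a length. Crtap followed at 33.5, Plod3 at 15.6, P4ha1 at 10.2, P3h1 at 3.92, Serpinh1 at 3.80, Plod1 at 3.15, Plod2 at 2.04, Fkbp10 at 0.870 and P4ha2 at 0.0937 CPM per kb. The ranges over the 16 libraries were separate for P4hb and Crtap, for Crtap and Plod3, and for P4ha1 and P3h1, and the other neighbours in this order overlapped. The place of Serpinh1 in this order differed with the transgene: per kb it stood at 1.19 CPM in WT and 1.16 CPM in Srsf2P95H, below P3h1 in all 8 of these libraries, and at 6.64 CPM in Asxl1Tg and 6.205 CPM in DM, above P3h1 in all 8. Among pairs that act together, Crtap per kb was 8.85 ± 0.988 times P3h1 in WT (SD, n = 4), 8.37 ± 1.04 times in Srsf2P95H, 8.61 ± 0.902 times in Asxl1Tg and 8.47 ± 0.502 times in DM, a ratio that differed between the genotypes by less than its spread between mice. P4ha1, the main catalytic subunit of prolyl 4-hydroxylase here, was 141.2 ± 86.8 times P4ha2 per kb in WT, 99.7 ± 42.5 times in Asxl1Tg, 117.3 ± 27.8 times in Srsf2P95H and 199.6 ± 13.4 times in DM.

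Serpinh1 (chromosome 7, 99345376 to 99353239, minus strand, GRCm38) was the member with the widest range over libraries as a ratio of highest to lowest (9.24). It stood at 2.60, 2.41, 3.94 and 2.66 CPM in the 4 WT mice and at 13.9, 16.5, 17.5 and 16.9 CPM in the 4 Asxl1Tg mice. Without the transgene but with the Srsf2 mutation it was 2.83, 2.82, 2.21 and 3.47 CPM, and with both it was 13.0, 15.4, 20.4 and 11.8 CPM. Every transgenic library lay above every other, with 11.8 CPM as the lowest of the first 8 and 3.94 CPM as the highest of the other 8. The gene was picked on this difference, and 0.462% of all genes were separated in that direction. The fitted ratio was 5.58-fold for Asxl1Tg against WT (log2 2.48, standard error 0.20) and 5.36-fold for DM against Srsf2P95H (log2 2.42, SE 0.20), contrasts that share no library. From 201 to 2564 reads per library lay behind these levels. The summed macrophage and monocyte markers (12 of 12 tested) were 92.0 to 360 CPM in WT and 266 to 467 CPM in Asxl1Tg, and 225 to 405 CPM in Srsf2P95H and 267 to 316 CPM in DM. They overlapped in both comparisons, and their part in the result was not tested.

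Fkbp10 (chromosome 11, 100415697 to 100424824, plus strand) had lower levels and the same order of groups. It was 1.65, 0.696, 1.29 and 0.968 CPM in WT and 3.50, 4.54, 5.07 and 4.27 CPM in Asxl1Tg. In Srsf2P95H it was 0.790, 1.13, 1.02 and 0.743 CPM, and in DM 4.36, 2.32, 4.88 and 3.64 CPM. The lowest transgenic library, DM 2, was above the highest without the transgene, WT 1, a separation seen in 0.462% of all genes in that direction. Fkbp10 too was picked on this difference. The fitted ratios were 3.77-fold for Asxl1Tg against WT (log2 1.91, SE 0.28) and 4.13-fold for DM against Srsf2P95H (log2 2.04, SE 0.28). Its 3′ part shares 193 bp of exon, 6.58% of its exon length, with Nt5c3b on the opposite strand, and the strand setting of the counting is not given in the sources used here. Nt5c3b itself had a log2 change of 0.17 (SE 0.08, adjusted p = 0.253) in Asxl1Tg against WT, by edgeR's quasi-likelihood test with Benjamini-Hochberg adjustment.

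**Figure D1:**
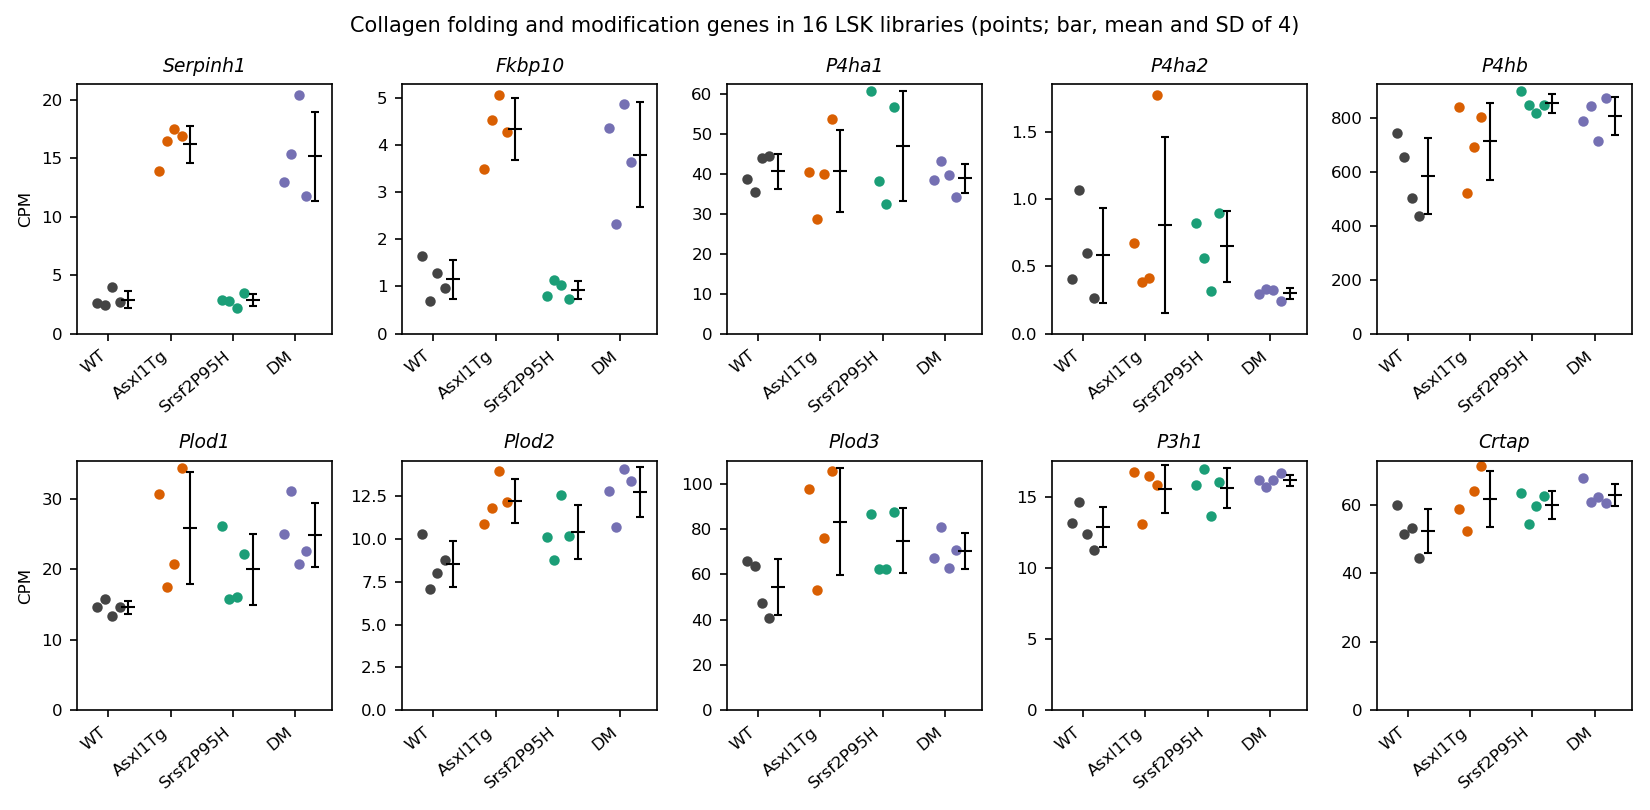
CPM of the 10 genes in each library, by genotype (points, 4 mice per genotype; bar, mean and SD). Serpinh1 and Fkbp10, on which the set was picked, separate all 8 transgenic libraries from the other 8, as 0.462% of all genes did in that direction. The groups overlap in P4ha1 and lie close together in P3h1 and Crtap.

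Whether the Srsf2 mutation moved these 2 genes was not part of how they were picked, and was tested. Serpinh1 had a log2 difference of -0.04 (95% interval -0.45 to 0.38, adjusted p = 0.918) in Srsf2P95H against WT and of -0.10 (-0.50 to 0.31, adjusted p = 0.836) in DM against Asxl1Tg, by edgeR's quasi-likelihood test with Benjamini-Hochberg adjustment over all genes. Fkbp10 had -0.32 (-0.92 to 0.27, adjusted p = 0.475) and -0.19 (-0.77 to 0.38, adjusted p = 0.758) in the same edgeR tests. In neither gene did a difference pass, and the intervals show how large a change the data leave possible, wider for Fkbp10 than for Serpinh1. The interaction asks whether the transgene's effect differs with the Srsf2 genotype. It is built from the transgene comparisons on which these 2 genes were picked, so it is given as a description. It was -0.06 (-0.64 to 0.52) for Serpinh1 and 0.13 (-0.69 to 0.96) for Fkbp10 on the log2 scale.

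The bases before the start of Serpinh1 are shown because it is the member that differed most between genotypes as a ratio. Those of P4hb and Plod3 are shown because this pair varied most alike between mice of a genotype. Each line is the 250 bases upstream of the start, 5′ to 3′ on the gene's strand, from RefSeq on GRCm38.p6, at chr7:99353240-99353489 (minus), chr11:120573254-120573503 (minus) and chr5:136986769-136987018 (plus). Capitals mark matches on either strand to ACGTG, the core of a hypoxia response element, and to CCACG, the last part of the ER stress element.
Serpinh1: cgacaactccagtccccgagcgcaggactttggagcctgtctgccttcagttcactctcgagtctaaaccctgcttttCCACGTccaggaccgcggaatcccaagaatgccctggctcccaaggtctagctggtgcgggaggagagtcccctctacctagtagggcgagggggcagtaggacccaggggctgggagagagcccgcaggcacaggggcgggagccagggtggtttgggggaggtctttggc
P4hb: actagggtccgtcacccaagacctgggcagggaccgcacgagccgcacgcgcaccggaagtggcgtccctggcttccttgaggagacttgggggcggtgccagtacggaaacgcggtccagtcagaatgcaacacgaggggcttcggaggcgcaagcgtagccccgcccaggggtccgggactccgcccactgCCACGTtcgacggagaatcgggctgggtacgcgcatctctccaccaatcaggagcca
Plod3: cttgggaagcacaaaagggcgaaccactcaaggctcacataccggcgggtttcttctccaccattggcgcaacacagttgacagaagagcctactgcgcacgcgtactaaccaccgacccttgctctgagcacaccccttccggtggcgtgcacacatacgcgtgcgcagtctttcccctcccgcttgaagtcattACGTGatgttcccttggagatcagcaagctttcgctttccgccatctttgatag
In Serpinh1 a CCACG match (172 to 168 bases before the start) overlapped an ACGTG match on the other strand (171 to 167), and in P4hb the same pair lay at 57 to 53 and 56 to 52. Plod3 held ACGTG alone, at 54 to 50. Of the 10 members, 8 matched the promoter table with 9 promoters, as P3h1 was listed at separate starts, and Fkbp10 and Plod2 did not match. ACGTG was found in 6 of 9 member promoters and in 16.6% of 32841 promoters of the same length, and CCACG in 7 of 9 and in 28.4%. The member promoters held 53.6 to 70% G and C, and both motifs contain CG. The 32841 were not matched for base composition, so these shares do not compare like with like. The full ER stress element, CCAAT followed by CCACG after a fixed spacer, was found in 0 of 9 and in 0.113%. Letters alone do not show that a factor binds.

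Of the other 8 members, none passed the test with the transgene in a single background. In Asxl1Tg against WT, edgeR's quasi-likelihood test called 0 of the 8 at an adjusted p under 0.05, with 1.88% of all tested genes called (1.12% higher), while 5 of the 8 had an unadjusted p under 0.05. The share of all genes under that unadjusted limit is not given here. This count and later ones at an unadjusted p therefore lack a background. All 8 had a positive log2 change (44.7% of all genes did), with a median of 0.39 against -0.04 over all genes. DESeq2 called 3 of them in the same libraries and limma-voom with quality weights called 2, with 1872 and 1091 genes called in all by these tools against 428 by edgeR. In DM against Srsf2P95H, 0 of the 8 were called by edgeR, DESeq2 or limma-voom, where edgeR called 0.246% of all genes, 1 of the 8 had an unadjusted p under 0.05, and their median was -0.02 against -0.01 over all genes. There 4 of the 8 had a positive log2 change (47.5% of all genes did), and the smallest adjusted p of the 8 was 0.730. In Srsf2P95H against WT, the same WT libraries, all 8 were positive as well (45% of all genes were). Their median was 0.28 against -0.05 over all genes.

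The lysyl hydroxylases had the largest positive changes among these 8 in Asxl1Tg against WT. Plod1, lysyl hydroxylase 1, which acts on lysines of the helix, was 14.6, 15.7, 13.4 and 14.6 CPM in WT and 30.7, 17.5, 20.7 and 34.3 CPM in Asxl1Tg. The groups did not overlap, as in 3.7% of all genes in that direction, and the log2 change of 0.82 (SE 0.21) had an adjusted p of 0.0514 in edgeR's test. In Srsf2P95H Plod1 was between 15.7 and 26.1 CPM and in DM between 20.7 and 31.1 CPM, groups that overlapped. Plod1 rose in DM against WT by 1.70-fold (log2 0.77, SE 0.21, edgeR adjusted p = 0.0326), where 9.39% of all genes were called and 4.65% were higher. That call was lost in 8 of 26 alternatives, among them each of WT 2, WT 3, WT 4, DM 1, DM 2 and DM 4 left out, with an adjusted p of up to 0.101 (0.0628 without both WT 4 and Srsf2P95H 2). In the same comparison edgeR called 1 of 12 LSK markers higher, the stem cell marker Slamf1 (log2 1.03), and 1 lower, the progenitor marker Flt3 (-0.95). Of 10 endothelial markers 1 rose, Tek (0.95), also a stem cell marker. Of 12 megakaryocyte markers 2 rose, Itgb3 (0.95) and Itga2b (0.48), and of 10 neutrophil markers 1, Cxcr2 (0.87). Of 16 stromal and bone markers 1 fell, Postn (-2.46). Of 11 T and NK cell markers Nkg7 rose (0.57) and Ncr1 fell (-4.32). Their part in the changes of the members in DM against WT was not tested.

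Plod2, lysyl hydroxylase 2, which acts on the non-helical ends and so on the type of crosslink, was 10.3, 7.09, 8.01 and 8.79 CPM in WT and 10.9, 11.8, 14.0 and 12.2 CPM in Asxl1Tg. It was 10.1, 8.78, 12.6 and 10.2 CPM in Srsf2P95H and 12.8, 10.7, 14.1 and 13.4 CPM in DM. WT did not overlap Asxl1Tg, as in 3.7% of all genes, or DM, as in 9.28% of all genes, both in the higher direction, whereas Srsf2P95H overlapped all 3 other groups. Plod2 rose in DM against WT by 1.49-fold (log2 0.57, SE 0.14, edgeR adjusted p = 0.0234) and over both backgrounds with the transgene, 8 libraries against 8, by 1.32-fold (log2 0.40, SE 0.10, edgeR adjusted p = 0.0482). The first call was lost in 5 of 26 alternatives (adjusted p up to 0.0643), among them WT 2, WT 3, DM 1 and DM 4 left out, and the second in 13 of 25 (up to 0.123), 11 of them with 1 library left out (WT 2, 3 or 4, Asxl1Tg 3 or 4, Srsf2P95H 1, 2 or 4, DM 1, 3 or 4), and its adjusted p was 0.123 without both WT 4 and Srsf2P95H 2. In the comparison over both backgrounds 1.85% of all genes were called and 1.4% were higher. In that comparison 3 of 10 members were called, Serpinh1 and Fkbp10 included by choice, and DM was compared with the same WT libraries as Asxl1Tg.

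Plod3, lysyl hydroxylase 3, which also adds sugars to hydroxylysine, spread more between mice. It ran from 40.5 to 65.9 CPM in WT, 53.2 to 105.7 CPM in Asxl1Tg, 62.3 to 87.6 CPM in Srsf2P95H and 62.6 to 80.9 CPM in DM. Its log2 change of 0.62 (SE 0.21) in Asxl1Tg against WT had an edgeR adjusted p of 0.109, and that of -0.09 (SE 0.21) in DM against Srsf2P95H had 0.998. The interaction of -0.71 (95% interval -1.34 to -0.07) was the smallest adjusted p of the 10 members there, at 0.389 in edgeR's test. Plod3 shares 529 bp, 11.7% of its exon length, with Znhit1 on the opposite strand, and Plod2 shares 346 bp (6.42%) with Gm38391.

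The prolyl 4-hydroxylase subunits showed no call with the transgene. P4ha1 was 40.7 ± 4.40 CPM in WT (SD, n = 4), 47.1 ± 13.8 CPM in Srsf2P95H, 40.8 ± 10.3 CPM in Asxl1Tg and 38.9 ± 3.72 CPM in DM, and the groups overlapped throughout. Its log2 difference over both backgrounds with the transgene was -0.14 (95% interval -0.43 to 0.16, edgeR adjusted p = 0.667). P4ha2, the second catalytic subunit, lay near the lower limit of the assay, with 29 to 182 reads per library. It was 0.670, 0.383, 0.411 and 1.77 CPM in Asxl1Tg and 0.297, 0.328, 0.326 and 0.239 CPM in DM, ranges that did not overlap, as in 4.16% of all genes in that direction. The log2 difference of -1.44 (SE 0.50) had an edgeR adjusted p of 0.146, and P4ha2 had no value under the stricter filter of 1 CPM in 4 libraries.

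P4hb was the member in which a difference with the Srsf2 mutation was called. It was 743.1, 654.9, 503.0 and 434.8 CPM in WT and 901.4, 846.8, 818.9 and 849.6 CPM in Srsf2P95H, ranges that did not overlap, as in 8.33% of all genes in that direction. With the transgene it was 840.5, 520.5, 693.7 and 802.5 CPM in Asxl1Tg and 790.3, 844.1, 715.7 and 876.3 CPM in DM. Over both backgrounds, P4hb rose 1.29-fold with the Srsf2 mutation (log2 0.36, SE 0.11, edgeR adjusted p = 0.0434). This was 1 of 10 members called against 10.6% of all genes called, a share near the background. The call was lost in 17 of 25 alternatives (adjusted p up to 0.0973), among them both WT 4 and Srsf2P95H 2 left out (0.0734), RLE scaling, library size alone, no filter, a stricter filter and 1 library left out (WT 3 or 4, Asxl1Tg 2 or 3, any of Srsf2P95H, DM 1, 2 or 4).

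In Srsf2P95H against WT, edgeR called 0 of 10 members and 0.506% of all genes, and 4 members had an unadjusted p under 0.05. DESeq2 called 2 (P4hb and P3h1) and limma-voom called 1 (P4hb), with 2602 and 1633 of all genes called by these tools. In DM against Asxl1Tg, edgeR, DESeq2 and limma-voom each called 0 of 10, with 1.08% of all genes called by edgeR and 1 member (P4ha2) at an unadjusted p under 0.05. The medians over the 10 members were 0.25 and -0.06 against -0.05 and 0.00 over all genes. The interaction gave 0 calls among the 10 members and 0% over all genes in edgeR, 2 members (P4ha2 and Plod3) had an unadjusted p under 0.05, and DESeq2 called 52 genes and no member. The interaction was negative in all of the 8 genes other than Serpinh1 and Fkbp10, and positive in 53.5% of all genes. The median of the 8 was -0.33 against 0.03 over all genes.

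**Figure D2:**
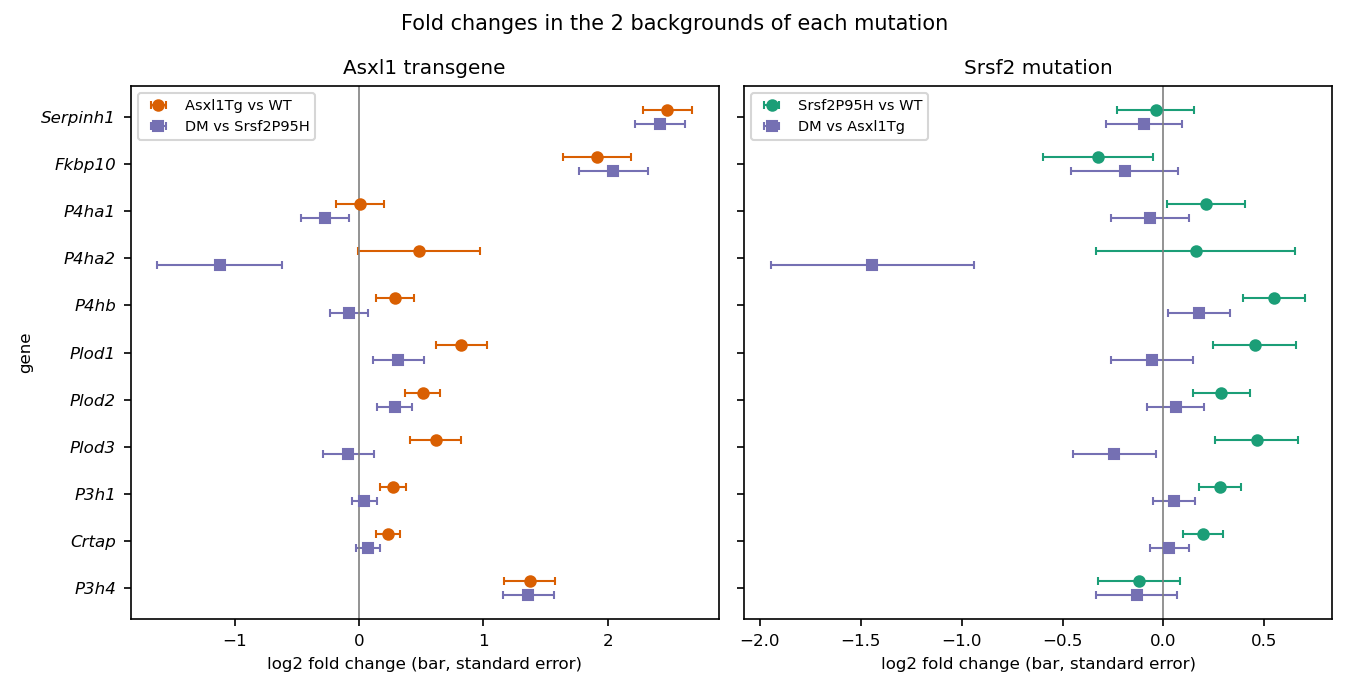
Log2 fold change (x axis) of each gene with the Asxl1 transgene (left) and with the Srsf2 mutation (right), in each of the 2 backgrounds, with the standard error as the bar. Serpinh1, Fkbp10 and P3h4 lie between 1.36 and 2.48 with the transgene in both backgrounds and near 0 with the Srsf2 mutation.

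P3h1 and Crtap, members of the 3-hydroxylation complex, were not called by edgeR in any comparison made. P3h1, the catalytic subunit, was 12.9 ± 1.42 CPM in WT (SD, n = 4), 15.7 ± 1.39 CPM in Srsf2P95H, 15.6 ± 1.68 CPM in Asxl1Tg and 16.2 ± 0.412 CPM in DM. Crtap, its partner without catalytic activity, was 52.4 ± 6.38, 60.1 ± 4.08, 61.7 ± 8.18 and 63.0 ± 3.37 CPM in the same order. In DM against WT the libraries of both genes did not overlap, as in 9.28% of all genes in that direction, with log2 changes of 0.32 (SE 0.10, edgeR adjusted p = 0.0573) and 0.27 (SE 0.10, adjusted p = 0.0844). P3h1 passed there in 4 of 26 alternatives, DESeq2 and limma-voom among them, and Crtap in 1. Ppib, the third protein of the complex and no member, rose in DM against WT by 0.31 on the log2 scale (edgeR adjusted p = 0.0237), a call lost in 6 of 26 alternatives (the compared groups only, and WT 3, WT 4, DM 1, DM 2 or DM 4 left out). In that comparison 4 of 10 members were called higher, Plod1 and Plod2 beside Serpinh1 and Fkbp10, on which the set was picked, with 9.39% of all genes called and 4.65% higher.

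A single mouse weighed on the comparison of Asxl1Tg with WT. Asxl1Tg 2 had the lowest value of its group in 7 of the 8 members other than Serpinh1 and Fkbp10 and the highest in 0 of them, while its Serpinh1 (16.5 CPM) and Fkbp10 (4.54 CPM) were within the range of the other 3. Without it, edgeR called 5 of the 8 instead of 0, namely Plod1, Plod2, Plod3, P3h1 and Crtap, while the number of all genes called went from 428 to 2330. With any other library left out, it called at most 1 of the 8. In WT, WT 4 had the lowest value in 5 of the 8.

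Between mice of a genotype the members fell into sets that did not vary alike. After the group means were removed from log2 CPM, the correlation over the 16 libraries was 0.89 for P4hb and Plod3, 0.83 for Plod1 and Plod3, 0.79 for P4ha1 and Plod1 and 0.735 for P4hb and P3h1. Serpinh1 had 0.20 with Fkbp10, -0.09 with Plod3 and -0.355 with P4hb. Fkbp10 had 0.66 with Plod2 and -0.58 with Plod1, the lowest of the 45 pairs, whose median was 0.26 and of which 15 were over 0.5. The points share a library and its depth and scaling, and the values are a description.

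**Figure D3:**
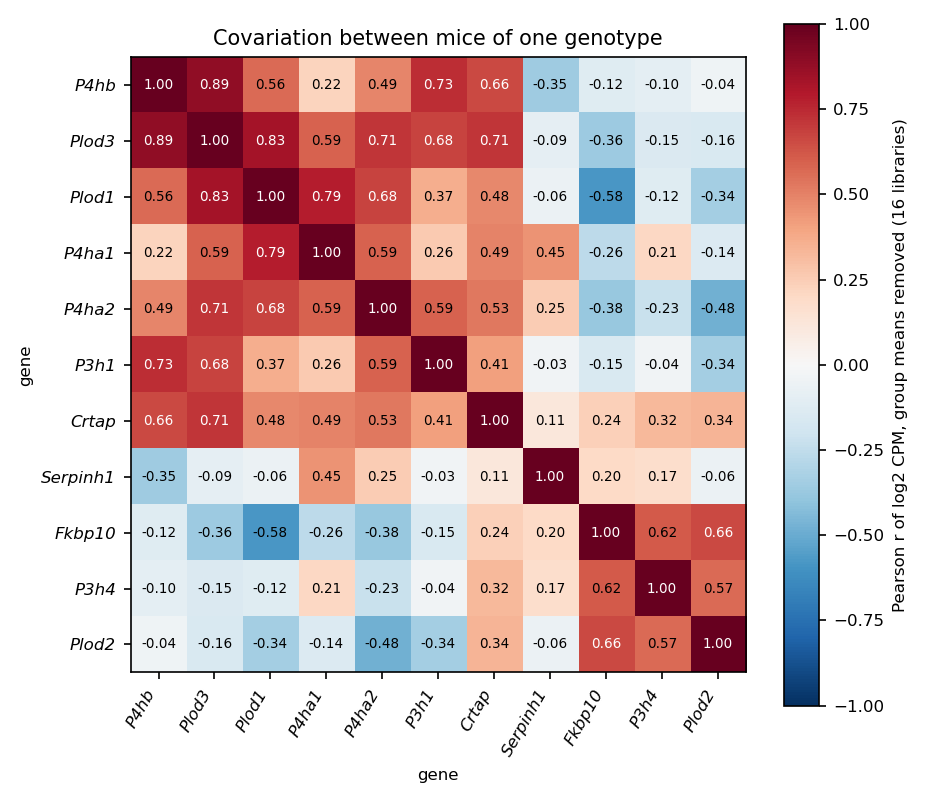
Pearson correlation of log2 CPM between genes over 16 libraries after removal of the 4 group means (colour and printed value). P4hb, Plod3, Plod1, P4ha1, P4ha2, P3h1 and Crtap are positive with one another, Fkbp10, Plod2 and P3h4 form a second set, and Serpinh1 has low values with most genes.

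Over the 16 libraries with group means left in, the 5 genes of at least 2 CPM whose log2 CPM was most like Serpinh1 were Macroh2a2 (r = 0.958), Evc (0.944), P3h4 (0.943), Evc2 (0.941) and Npdc1 (0.925). For Fkbp10 they were P3h4 (0.961), Sel1l3 (0.933), Inppl1 (0.927), Nsg1 (0.926) and Ptprk (0.924), out of 12543 genes ranked. These values rest on the difference between groups, which all these genes share. With the group means removed, P3h4 was 0.616 with Fkbp10, the 230th of the genes ranked, and 0.172 with Serpinh1, the 3458th.

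P3h4 encodes SC65, a non-enzymatic relative of P3h1 that binds lysyl hydroxylase 1 and cyclophilin B. It is the neighbour of Fkbp10, on the opposite strand with 860 bp between the genes (chromosome 11, 100408456 to 100414836), and was not among the 10. It was 1.20, 0.936, 1.44 and 1.32 CPM in WT and 3.16, 2.43, 3.86 and 3.26 CPM in Asxl1Tg. In Srsf2P95H it was 1.22, 1.08, 1.24 and 0.959 CPM and in DM 3.30, 2.19, 3.30 and 2.80 CPM. All 8 transgenic libraries were above the other 8, as in 0.462% of all genes in that direction. P3h4 rose 2.59-fold in Asxl1Tg against WT (log2 1.37, SE 0.20, edgeR adjusted p = 0.00277) and 2.57-fold in DM against Srsf2P95H (log2 1.36, SE 0.20, adjusted p = 0.00734), calls that held in every alternative run. Its log2 difference with the Srsf2 mutation was -0.12 (95% interval -0.57 to 0.32, edgeR adjusted p = 0.738) against WT and -0.13 (-0.57 to 0.30, adjusted p = 0.784) against Asxl1Tg. Per kb, Fkbp10 stood at 0.695 ± 0.224 of P3h4 in WT and 1.04 ± 0.243 in Asxl1Tg (SD, n = 4), ranges that overlapped.

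Of the other neighbours, Nt5c3b, Znhit1, Glb1 and Gdpd5 were not called by edgeR in Asxl1Tg against WT or in DM against Srsf2P95H. Gdpd5, a phosphodiesterase gene 28174 bp from Serpinh1 on the opposite strand, fell with the Srsf2 mutation by 1.32 on the log2 scale in Srsf2P95H against WT (SE 0.24, edgeR adjusted p = 0.0312), a contrast in which Serpinh1 had -0.04. Slc9a9, the next protein-coding gene after Plod2 but 2061480 bp away, fell by 0.78 in Asxl1Tg against WT (SE 0.17, edgeR adjusted p = 0.0310), where Plod2 had 0.51. Slc9a9 also had -0.78 in Srsf2P95H against WT (edgeR adjusted p = 0.0533) and -0.80 in DM against WT (0.0137). In DM against Srsf2P95H it had -0.02 (0.998). The calls of Gdpd5 and Slc9a9 were not rerun in the alternatives, and WT 4 held the highest level of both genes (1.93 and 47.9 CPM).

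Among 14 other collagen modification and folding genes, 3 rose in Asxl1Tg against WT (1.12% of all genes did) and 0 fell, with a list median of 0.18 against -0.04 over all genes. They were P3h4, P3h3 and Fkbp9. P3h3, a prolyl 3-hydroxylase relative that acts with P3h4 and lysyl hydroxylase 1, went from 14.5 to 17.3 CPM in WT to 21.6 to 29.4 CPM in Asxl1Tg, a log2 change of 0.65 (SE 0.11, edgeR adjusted p = 0.00604). Fkbp9, a prolyl isomerase of the ER and relative of Fkbp10, went from 42.0 to 59.5 CPM in WT to 65.2 to 77.6 CPM in Asxl1Tg, a log2 change of 0.58 (SE 0.10, edgeR adjusted p = 0.00604). Both calls were lost in 1 of 26 alternatives, the fit of the compared groups only (adjusted p = 0.0528 for P3h3 and 0.0515 for Fkbp9). Over both backgrounds the 8 transgenic libraries did not overlap the other 8 in either gene, as in 0.462% of all genes in that direction, with log2 changes of 0.47 (SE 0.08) and 0.50 (SE 0.07). In DM against Srsf2P95H 1 of the 14 was called, P3h4, where 0.246% of all genes were called. With the Srsf2 mutation over both backgrounds 2 of 14 rose, where 10.6% of all genes were called, a share near the background. They were Ppib and Tmem38b, an ER channel gene. Ppib rose by 0.22 on the log2 scale (SE 0.05, edgeR adjusted p = 0.0214), a call lost in 3 of 25 alternatives (Srsf2P95H 1, DM 2 or DM 4 left out). The call of Tmem38b was lost in 11 of 25, among them the fit without both WT 4 and Srsf2P95H 2.

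Genes that process and crosslink procollagen had few calls. Of 11 tested, 1 rose in Asxl1Tg against WT (1.12% of all genes did), Bmp1, the protease that removes the C-propeptide, from 18.5 ± 2.40 to 25.7 ± 3.06 CPM (log2 0.48, SE 0.11, edgeR adjusted p = 0.0417). That call was lost in 9 of 26 alternatives (adjusted p up to 0.133, and 0.103 without both WT 4 and Srsf2P95H 2), and the rise over both backgrounds of 0.51 (SE 0.08, edgeR adjusted p = 0.00189) held in all 25. Of 11 procollagen export genes, 0 were called with the transgene in either background by edgeR, and over both backgrounds 2 rose with the Srsf2 mutation, where 10.6% of all genes were called. These were the coat components Sar1b (log2 0.41, SE 0.09, adjusted p = 0.0132) and Sec23a (log2 0.18, SE 0.05, adjusted p = 0.0266). The call of Sar1b held in all 25 alternatives, and that of Sec23a was lost in 8 (library size only, no filter, the stricter filter, and Srsf2P95H 1 or 3 or DM 1, 2 or 4 left out), with a log2 change down to 0.086 and an adjusted p up to 0.20.

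The collagen chains that could be clients of these enzymes were mostly low in these cells. Of 43 chain genes, 30 had a mean under 1 CPM, 7 reached 10 CPM and 33 were tested. Per kb of exon the highest were Col4a2 (13.4 CPM per kb) and Col4a1 (11.7 CPM per kb), the chains of basement membrane collagen, named here for their level. With the transgene 1 of 33 was called in Asxl1Tg against WT (1.88% of all genes were), Col18a1, the chain of a basement membrane collagen, which rose from 2.61 to 6.59 CPM in WT to between 12.01 and 17.8 CPM (log2 1.80, SE 0.27, edgeR adjusted p = 0.00277). In DM against Srsf2P95H 0 of 33 were called by edgeR, and Col18a1 was 6.34 to 11.6 CPM in Srsf2P95H and 9.69 to 17.1 CPM in DM. In DM against WT 5 of 33 rose and 3 fell, where 9.39% of all genes were called. Col4a1 (log2 0.60, edgeR adjusted p = 0.0224) and Col4a2 (0.61, 0.0316) were among those that rose. These 2 calls were lost in 3 and 10 of 26 alternatives, each without both WT 4 and Srsf2P95H 2. With the Srsf2 mutation over both backgrounds 2 of 33 rose and 2 fell, where 10.6% of all genes were called. Over both backgrounds with the transgene, Col4a6 rose by 1.37 (SE 0.26, edgeR adjusted p = 0.00793) and Col20a1 fell by 0.81 (SE 0.18, adjusted p = 0.0307) on the log2 scale. Both were low, with means of 0.675 and 0.553 CPM, and Col4a6 was highest in Asxl1Tg 3 (1.76 CPM). The Col20a1 call was lost in 12 of 24 alternatives, with an adjusted p of 0.101 without both WT 4 and Srsf2P95H 2.

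Type I collagen, the main client of Hsp47 in connective tissue, ranged widely between mice of each genotype. Col1a1 ran from 0.102 to 112 CPM over the 16 libraries and was highest in Srsf2P95H 4, where Serpinh1 was 3.47 CPM and Fkbp10 0.743 CPM. By genotype Col1a1 ran from 0.102 to 10.7 CPM in WT, 1.81 to 50.4 CPM in Asxl1Tg, 0.556 to 112 CPM in Srsf2P95H and 1.16 to 41.9 CPM in DM, ranges that overlapped. Of the 6 libraries highest in Col1a1, 5 carried the transgene. Col1a1 was 1.16 CPM in DM 2 and 1.81 CPM in Asxl1Tg 1, also transgenic, where Serpinh1 was 15.4 and 13.9 CPM. The part of type I collagen-producing cells in the result for Serpinh1 was not tested. The stromal and bone list held 16 tested genes of 18 and its summed level was 249 to 310 CPM in WT, 199.8 to 265.3 in Asxl1Tg, 208.8 to 375.5 in Srsf2P95H and 193.4 to 240.7 in DM, with Runx2 (116 to 187 CPM) and Pdgfrb (30.9 to 114 CPM) as large contributors. In Asxl1Tg against WT 0 of the 16 rose and 2 fell, Postn and Runx2, where 1.88% of all genes were called in either direction.

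Among 16 tested proteins with a collagen-like helix other than collagens, Scara3, a scavenger receptor-like protein, rose in both backgrounds. It was 0.036 to 0.317 CPM in WT and 1.11 to 1.28 CPM in Asxl1Tg (log2 3.03, SE 0.49, edgeR adjusted p = 0.00500), and 0.08 to 0.243 CPM in Srsf2P95H and 0.504 to 1.51 CPM in DM (log2 2.65, SE 0.48, adjusted p = 0.0272). The second call was lost in 5 of 26 alternatives, each with 1 library left out (Srsf2P95H 1, 2 or 4, DM 2 or 3). Over both backgrounds 3 of 16 rose (1.4% of all genes did), with C1qtnf4 (log2 1.84, SE 0.41, adjusted p = 0.0252) and Eda (log2 0.58, SE 0.12, adjusted p = 0.0107) as the others. C1qtnf4 was low, at 0.012 to 0.312 CPM in WT and 0.303 to 0.477 CPM in Asxl1Tg, ranges that overlapped. It was 0.02 to 0.0722 CPM in Srsf2P95H and 0.216 to 0.342 CPM in DM. The call of C1qtnf4 was lost in 5 of 24 alternatives (adjusted p up to 0.0773, without both WT 4 and Srsf2P95H 2, and with Asxl1Tg 4, Srsf2P95H 1, Srsf2P95H 3 or DM 3 left out).

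**Figure D4:**
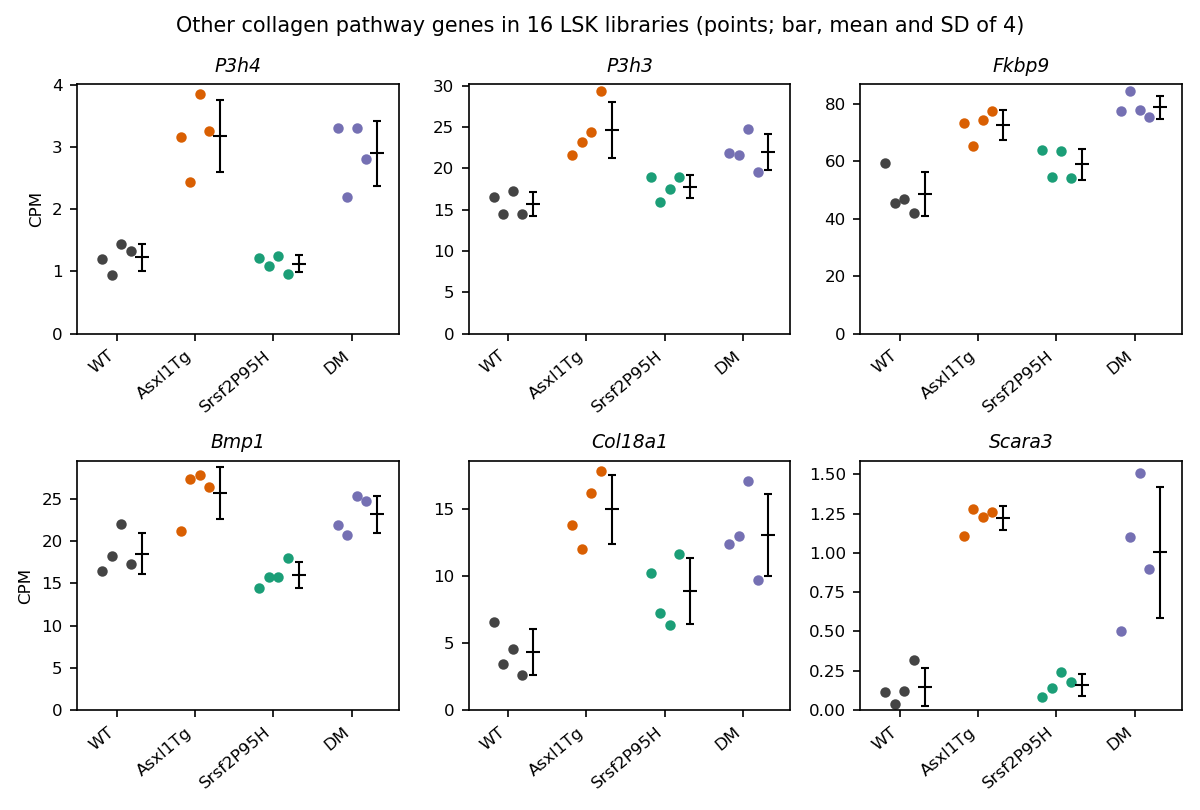
CPM of 6 called genes of the wider pathway in each library, by genotype (points, 4 mice per genotype; bar, mean and SD). P3h4, P3h3, Fkbp9 and Scara3 separate the 8 transgenic libraries from the other 8, as 0.462% of all genes did in that direction, whereas Bmp1 and Col18a1 overlap between them. The 6 genes were taken from those called with the transgene in these libraries, so the separation is a description.

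Other programmes had few calls with the transgene. Of 25 ER folding and unfolded protein response genes, edgeR called 0 in Asxl1Tg against WT and 0 in DM against Srsf2P95H. With the Srsf2 mutation over both backgrounds 7 of 25 rose, where 10.6% of all genes were called, among them Sel1l (log2 0.25, SE 0.06, adjusted p = 0.0159) and Ero1l (log2 0.35, SE 0.09, adjusted p = 0.0241), with a list median of 0.30 against -0.02 over all genes. The Sel1l call was lost in 3 and the Ero1l call in 4 of 25 alternatives, both with library size only and with Srsf2P95H 1 left out, Sel1l also without DM 2 and Ero1l also without DM 1 or DM 4, and that of Ero1lb was lost in 13. Of 24 hypoxia response genes 1 rose in Asxl1Tg against WT (1.12% of all genes did), Hk2, a hexokinase (log2 0.48, SE 0.10, edgeR adjusted p = 0.0225). That call of Hk2 was lost in 6 of 26 alternatives (the compared groups only, both WT 4 and Srsf2P95H 2 left out with an adjusted p of 0.0684, and WT 2, WT 4, Asxl1Tg 1 or Asxl1Tg 4 left out), with an adjusted p up to 0.0929. Of 22 TGF-beta pathway genes 1 rose in Asxl1Tg against WT (1.12% of all genes did), Ltbp4, which binds latent TGF-beta to the matrix, from 2.93 to 4.98 CPM in WT to 7.49 to 11.7 CPM in Asxl1Tg (log2 1.30, SE 0.19, adjusted p = 0.00271). Of 10 genes that supply vitamin C and 2-oxoglutarate, the cofactors of the hydroxylases, 0 were called with the transgene in either background.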

How the data were processed

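RNA from 16 individual mice was sequenced as paired 100-base reads, per the labels' protocols. The deposited values are raw read counts for each gene symbol, with 1 column per sample. Trimmomatic 0.38, FastQC, HTSeq 0.11.2, STAR 2.7.0e and mm10 are listed in the submitters' processing notes. The annotation release and the strandedness of the counting were not given in the sources used here. The columns of Asxl1Tg carry a short name matched to the titles by elimination. The series design text gives 3 double mutants, but the labels and table hold 4, and all were used. The table held 0 columns of other series.

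Genes were kept with filterByExpr (minimum count 10), scaled by TMM and fitted with edgeR 4.0.16 in R 4.3.3 (quasi-likelihood, robust dispersion, all 16 libraries, 4 group means). Within each comparison the Benjamini-Hochberg adjustment ran over 22749 genes, with calls made below an adjusted p of 0.05. The SE is the absolute log2 change over the square root of F, and 95% intervals use 12 residual degrees of freedom. A fit with 4 against 4 mice measures the spread between mice. Exon lengths and positions came from GENCODE M21 and promoters from RefSeq GRCm38.p6. The test was checked on simulated data. The replicate numbers do not pair the mice (correlations -0.293 to 0.295 between the 24 same-numbered pairs of libraries), so no block was used.

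The members and lists were chosen with earlier results of these data known. Named were all 10 members, the nearest protein-coding genes, the 5 genes most like Serpinh1 and Fkbp10, and from each other list at most 4 called genes of smallest p. Alternatives were DESeq2 1.42.0, limma 3.58.1 (voom, quality weights), a stricter filter (1 CPM in 4 libraries) or none, scaling by library size only or by RLE factors, compared groups only, a replicate block, an Xist covariate, WT 4 and Srsf2P95H 2 left out, and each library left out. Alternatives for P3h4 and for called genes of the other lists, apart from the cell markers, were added after seeing the data.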

Additional observations from a re-analysis of the deposited data

Results flagged for a closer look

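Serpinh1 in WT 3 was 3.94 CPM, while the other 3 WT mice lay between 2.41 and 2.66 CPM. The gap to the nearest of them was 0.837 of the range of the group, above Dixon's 95% critical value for 4 samples. It was 1 of 40 groups of member values examined, and chance marks about 1 in 20. The value lies below every transgenic library, of which the lowest was 11.8 CPM. The log2 ratio of Serpinh1 in Asxl1Tg against WT ran from 2.40 to 2.66 when each library was left out in turn.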

How the results depend on the processing

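Serpinh1 and Fkbp10 kept their direction with the transgene in each alternative run, which is a description, since the set was picked on it. The calls of P3h4 held in each of 26 in Asxl1Tg against WT, DM against Srsf2P95H and DM against WT, and in each of 25 over both backgrounds. The counts of calls moved most. In comparisons of transgenic with other mice, the member counts here and below include Serpinh1 and Fkbp10, on which the set was picked. In Asxl1Tg against WT (428 genes, 2 members) DESeq2 called 1872 genes and 5 members, limma-voom 1091 and 4, the compared groups only 73 genes, the stricter filter 4 members and the fit without both WT 4 and Srsf2P95H 2 212 genes. In DM against Srsf2P95H (56 genes) the counts were 234 with DESeq2, 92 with limma-voom and 26 without both libraries, and for the transgene over both backgrounds (420) 1087 and 666 with DESeq2 and limma-voom. In Srsf2P95H against WT (115 genes, 0 members) they were 217 with library size only, 202 with the stricter filter, 2602 genes and 2 members with DESeq2, 1633 genes and 1 member with limma-voom, 2 with the compared groups only, 298 without both libraries and 56 with the Xist covariate. In DM against Asxl1Tg (245) they were 135 with RLE factors, 86 with library size only, 101 with no filter, 1168 with DESeq2, 1090 with limma-voom, 17 with the compared groups only and 655 without both libraries. For the Srsf2 mutation over both backgrounds (2420 genes, 1 member) they were 1443 with no filter and 3813 with DESeq2, and 0 members with RLE factors, library size only, no filter, the stricter filter, both libraries left out or the Xist covariate. In DM against WT (2135) they were 3914 with DESeq2 and 4320 with limma-voom, and the interaction (0) gave 1 gene with no filter and 52 with DESeq2. The cause of these shifts was not tested.

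With the replicate block, which the labels' numbers do not justify as a pairing (the best match of a library carried its own number in 3 of 16), the counts were 648 genes and 4 members in Asxl1Tg against WT and 952 genes in Srsf2P95H against WT, and P4ha1 had -0.017 in the first.

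With each library left out in turn, genes called ran from 121 to 2330 in Asxl1Tg against WT (members 2 to 7), 20 to 63 in DM against Srsf2P95H, 312 to 658 over both backgrounds of the transgene, 0 to 1638 in Srsf2P95H against WT (members 0 to 1), 10 to 384 in DM against Asxl1Tg, 914 to 3015 over both backgrounds of the Srsf2 mutation (members 0 to 1), 586 to 2660 in DM against WT (members 2 to 6) and 0 to 7 in the interaction.

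Signs turned only in values that were not called. In Asxl1Tg against WT, P4ha1 was -0.034 with library size only, and with a library left out P4ha1 ran from -0.16 to 0.14 and P4ha2 from -0.25 to 0.94. In DM against Srsf2P95H, Plod3 ran from -0.17 to 0.0048 and P3h1 from -0.016 to 0.085. In Srsf2P95H against WT, Serpinh1 was 0.0050 with limma-voom and 0.00017 with the Xist covariate, P4ha2 was -0.049 with limma-voom and -0.023 without both libraries, and with a library left out Serpinh1 ran from -0.15 to 0.15 and P4ha2 from -0.083 to 0.62. In DM against Asxl1Tg with library size only, Plod2 was -0.0086, P3h1 -0.015 and Crtap -0.038, and Crtap was -0.019 with the stricter filter and -0.0084 with limma-voom. With a library left out P4ha1 ran from -0.20 to 0.097, Plod1 from -0.20 to 0.11, Plod2 from -0.016 to 0.13, P3h1 from -0.020 to 0.081 and Crtap from -0.041 to 0.11. For the Srsf2 mutation over both backgrounds P4ha1 was -0.014 with library size only, Serpinh1 ran from -0.15 to 0.026 and P4ha1 from -0.018 to 0.16. In DM against WT P4ha1 was 0.0071 with limma-voom. In the interaction P3h4 was 0.043 with library size only and 0.040 with the Xist covariate, Fkbp10 was -0.089 with limma-voom, and with a library left out Serpinh1 ran from -0.24 to 0.053, Fkbp10 from -0.091 to 0.31 and P3h4 from -0.12 to 0.096.

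Library size alone moved the median of all genes to -0.16 in Srsf2P95H against WT and -0.12 in DM against WT. The compared groups only gave no value over both backgrounds, and P4ha2 had none under the stricter filter. The median SE of a log2 change over all genes was 0.235 in DM against WT. P4ha2 (29 to 182 reads) and Fkbp10 (58 to 614 reads) rest on the fewest counts.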

Other observations

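Within genotypes Fkbp10, P3h4 and Plod2 were positively related (r = 0.57 to 0.66 over 16 libraries after removal of group means), and Serpinh1 was not (0.20, 0.17 and -0.06 with the same 3 genes). Col1a1 and Col1a2 ranged from 0.102 to 112 CPM and from 1.86 to 61.9 CPM, and both were highest in Srsf2P95H 4.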
